A study of Mus musculus with 12 samples.

Results

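The effect of gastrodin at 50 mg/kg/day that mouse hearts had in common, whether or not they came from the angiotensin II (AngII) model of cardiac hypertrophy, was measured over 8 of the 12 libraries of the series. Gastrodin is the main phenolic glucoside of Gastrodia elata, an orchid used in Chinese medicine. The 4 libraries at 50 mg were 2 of AngII hearts (numbers 5 and 6) and 2 of sham-operated hearts (numbers 11 and 12), and the 4 libraries of vehicle-treated mice, whose dose was 0 mg, were 2 of AngII hearts (numbers 1 and 2) and 2 of sham-operated hearts (numbers 7 and 8). They were compared with the arm, AngII or sham, as a block, so that the comparison asks what 50 mg did on average in both arms. The other 4 libraries, at 5 mg, were used only to set the lower dose beside the higher. All mice were wild-type C57BL/6 at postnatal day 45, dosed by the gastric route for 7 days, and the hearts were removed and flash frozen. The labels state neither the dose and route of AngII nor the sex of the mice. The labels do not say that 2 libraries of a group came from separate mice, so the spread between libraries of a group may be technical. The p-values of the common effect reflect that spread between these libraries alone and not a known spread between mice. They also reflect how far the effect differed between the arms, because the model held no term for that difference.

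The adult heart draws most of its energy from fatty acids. Their use is set largely by nuclear receptors of the PPAR family, which raise transcripts such as Pdk4, whose kinase shuts off pyruvate dehydrogenase and so spares glucose, and Ucp3, an uncoupling protein of the inner mitochondrial membrane. AngII acts through a G-protein-coupled receptor on cardiac muscle cells and fibroblasts, and its hypertrophic response is commonly followed by the natriuretic peptide genes Nppa and Nppb, by the fetal contractile genes Myh7 and Acta1, and by collagens. Glucocorticoids, the adrenal stress hormones, also act on the heart, and Fkbp5, Zbtb16 and Tsc22d3 are among the transcripts they raise in many tissues.

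Total counts in the 8 libraries were 72269590 to 78604709. Genes of nuclear origin other than ribosomal RNA took 9.66 and 18.7% of the counts in AngII and 7.01 and 9.36% in sham libraries at 50 mg, against 13.96 and 9.47% in AngII and 7.56 and 10.4% in sham libraries on vehicle, and the rest was chiefly mitochondrial RNA. The mean share was 11.2 ± 5.13% at 50 mg and 10.4 ± 2.68% on vehicle (SD, n = 4 each; exact permutation test within arms, 2-sided, p = 0.833, where 36 splits allow no p below 0.0556). Sham number 12 at 50 mg stood apart with 10.8% ribosomal RNA, against 0.0724 to 0.0927% in the other 50 mg libraries. The cardiac troponin Tnnt2 was at 738.6 to 1333 CPM (counts scaled to a library of 1000000) in all 8 libraries.

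No gene passed the test for the common effect. Of 16024 genes with enough counts, 0 (0%) had an adjusted p under 0.05 in edgeR's quasi-likelihood F-test (adjusted by Benjamini-Hochberg), the smallest being 0.33, and limma-voom called 0. At an unadjusted p under 0.05 there were 594 genes (3.71%), of which 333 lay higher at 50 mg (2.08%) and 261 lower (1.63%). These are fewer than the 801 that chance would give if no gene differed, so that threshold serves below for description only. DESeq2's Wald test, run as an alternative, called 21 genes (0.131%), 14 higher (0.0874%) and 7 lower (0.0437%). In a simulation on these libraries, changes equal in both arms were planted in genes of at least 1 mean CPM. The edgeR test recovered 23.9% of 2-fold, 97% of 4-fold and 100% of 8-fold planted changes. A planted 2-fold change was thus mostly below what 4 libraries a dose could call. These rates do not carry over to changes that differ between arms or to lower genes. They also hold only for the number of changes planted at once (67 of 2-fold, 67 of 4-fold and 66 of 8-fold). The adjusted p depends on how many genes change, so with few changed genes a change of the same size is harder to call. Pdk4, 3.99-fold lower at 50 mg, was not called by edgeR (adjusted p = 0.707). Genes are named in what follows as the 10 with the smallest p in each direction, among genes of at least 1 mean log2 CPM whose 50 mg libraries did not overlap the vehicle libraries of their own arm. Genes without such overlap numbered 401 higher (2.5%) and 380 lower (2.37%) of the 16024, so the absence of overlap alone is common in these data. For the genes so named, lying apart within each arm was a condition of being named and is no separate result.

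Pdk4 had the smallest p of the 10 named genes that were lower at 50 mg. On chromosome 6 (GRCm38, 5483351 to 5496309, minus strand), it was at 7.31 and 14.6 CPM in AngII and 12.7 and 5.06 CPM in sham libraries at 50 mg, against 25.3 and 37.6 CPM in AngII and 50.4 and 48.5 CPM in sham libraries on vehicle. Every 50 mg library lay below every vehicle library of either arm. The means were 9.92 ± 4.48 CPM at 50 mg and 40.4 ± 11.6 CPM on vehicle (SD, n = 4 each), a log2 fold change of -1.997 ± 0.36 (SE), or 3.99-fold lower. The unadjusted p of edgeR's quasi-likelihood test was 0.000151, with an adjusted p of 0.707 over all genes, and DESeq2 gave an adjusted p of 3.64e-05. Its log2 fold change was -1.51 ± 0.44 in AngII and -2.48 ± 0.45 in sham hearts, and the test of the difference between the arms gave an adjusted p of 0.793 (edgeR).

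Ucp3, on chromosome 7 (100472990 to 100486432, plus strand), followed the same order. It was at 2.9 and 4.07 CPM in AngII and 0.752 and 0.185 CPM in sham libraries at 50 mg, against 6.44 and 10.6 CPM in AngII and 7.48 and 5.37 CPM in sham libraries on vehicle. Again no 50 mg library reached the lowest vehicle library. On the log2 scale the fold change was -2.44 ± 0.55, with an unadjusted p of 0.000996 by edgeR and an adjusted p of 0.00273 by DESeq2. In AngII hearts the log2 fold change was -1.29 ± 0.53, and in sham hearts it was -3.80 ± 0.61.

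Angptl4, on chromosome 17 (33773750 to 33781830, minus strand), encodes a secreted inhibitor of lipoprotein lipase and is another PPAR target. Its levels were 1.40 and 1.30 CPM in AngII and 1.15 and 0.399 CPM in sham libraries at 50 mg, against 1.45 and 4.34 CPM in AngII and 5.17 and 3.10 CPM in sham libraries on vehicle. The libraries did not overlap, but in AngII hearts vehicle number 1 was only just above the 50 mg libraries. The log2 fold change was -1.74 ± 0.46 (edgeR, unadjusted p = 0.00314, n = 4 each).

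The bases that precede the start sites of Pdk4 and Ucp3, taken from RefSeq on GRCm38.p6, are printed because both transcripts lay lower at 50 mg and nuclear receptors of the PPAR family bind half-sites of the form AGGTCA, which stand in capitals where they occur on the printed strand. Both strands were searched over 300 bases (250 before the start and 50 after it). The RefSeq start of Pdk4 lies inside the gene position given above, which comes from GENCODE, so the printed window reaches into that position.
Pdk4, chr6:5496279-5496528, minus strand: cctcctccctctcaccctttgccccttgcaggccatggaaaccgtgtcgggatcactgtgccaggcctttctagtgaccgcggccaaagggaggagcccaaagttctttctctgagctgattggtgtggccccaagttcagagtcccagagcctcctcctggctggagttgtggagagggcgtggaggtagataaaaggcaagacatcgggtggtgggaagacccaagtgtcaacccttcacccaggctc
Ucp3, chr7:100472741-100472990, plus strand: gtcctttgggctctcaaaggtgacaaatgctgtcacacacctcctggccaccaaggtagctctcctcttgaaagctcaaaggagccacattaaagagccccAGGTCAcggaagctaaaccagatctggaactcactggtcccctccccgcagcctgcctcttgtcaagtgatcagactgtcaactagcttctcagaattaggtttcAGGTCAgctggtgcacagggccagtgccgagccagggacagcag
Ucp3 had 2 matches and Pdk4 had 0 in these windows, and 5340 of 32851 RefSeq promoter windows of the same length (16.3%) held at least 1. The match is a description of the letters in the window.

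**Figure D1:**
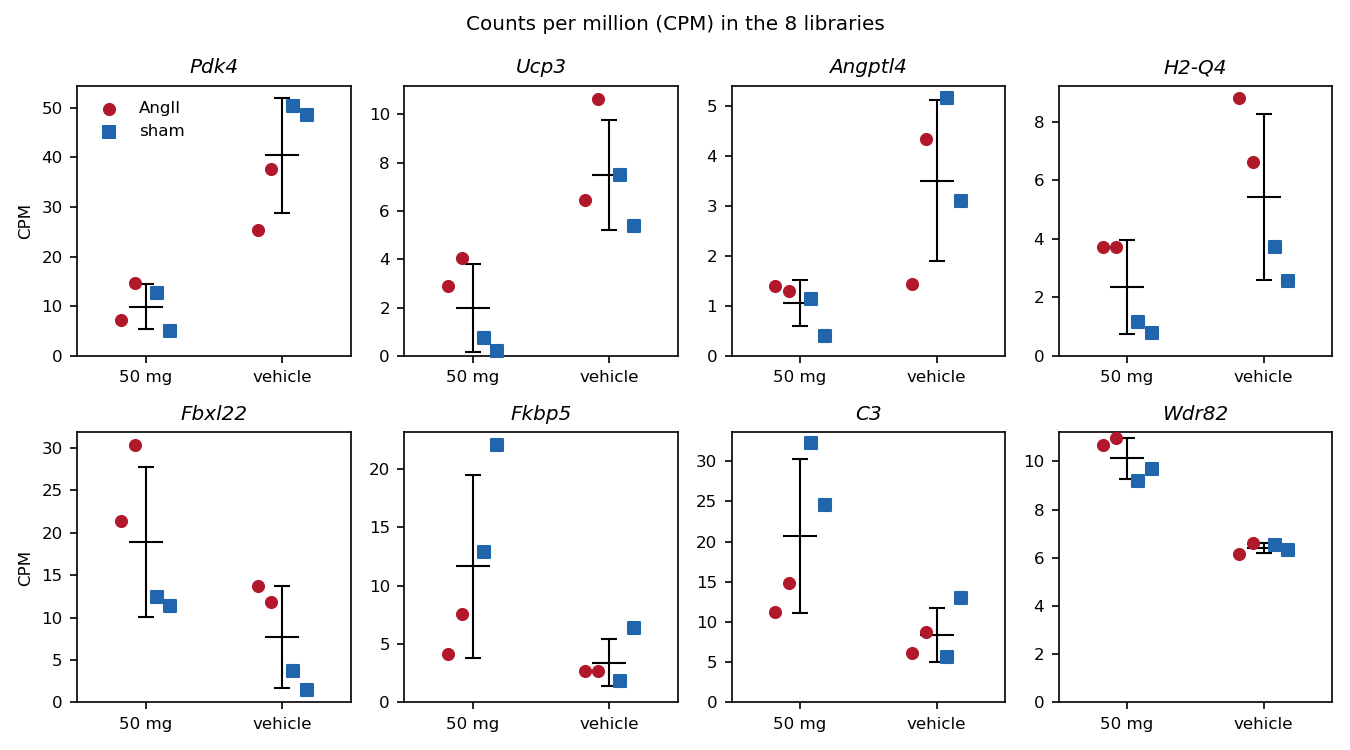
Normalised level (CPM) of 8 genes in the 8 libraries, with the 4 libraries at 50 mg at the left and the 4 on vehicle at the right of each panel; circles are AngII and squares sham libraries, and the bar gives the mean ± SD of 4. Pdk4, Ucp3, Angptl4 and H2-Q4 lie lower at 50 mg, while Fbxl22, Fkbp5, C3 and Wdr82 lie higher.

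Fatty acid use was described further with a list of 34 genes, all of which had enough counts. Of these, 33 had a negative log2 fold change and 1 a positive one (the nuclear receptor Ppara, at 0.09 ± 0.43), and the list's median was -0.37, where all genes tested had a median of -0.00 with 8034 negative and 7990 positive. At an unadjusted p under 0.05 (edgeR), 8 of 34 lay lower, against 1.63% of all genes, and 0 lay higher, against 2.08%. Beside Pdk4, Ucp3 and Angptl4 these were Mlycd (malonyl-CoA decarboxylase, -0.78 ± 0.24), Acot2 (a mitochondrial acyl-CoA thioesterase, -0.77 ± 0.32), Hadh (-0.67 ± 0.24) and Hadhb (-0.49 ± 0.20), which act in beta-oxidation, and Plin5 (a lipid droplet protein, -0.62 ± 0.22). In 6 of the 34 the libraries of neither arm overlapped and 50 mg was lower, against 2.37% of all genes.

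The fatty acid genes had values closer to 0 in AngII than in sham hearts, a difference that was tested gene by gene only. The median log2 fold change of the list was -0.02 in AngII and -0.76 in sham hearts. Mlycd shows the pattern: it was at 13.1 and 12.7 CPM in AngII and 6.62 and 6.11 CPM in sham libraries at 50 mg, against 15.9 and 14.1 CPM in AngII and 17.1 and 15.2 CPM in sham libraries on vehicle. Its log2 fold change was -0.22 ± 0.25 in AngII and -1.35 ± 0.26 in sham hearts, and the difference between arms had an adjusted p of 0.581 (edgeR). Cd36, the fatty acid transporter, was close to its vehicle level in both arms, with a common log2 fold change of -0.13 ± 0.20 and a 95% interval of -0.57 to 0.30. Cpt1b, the carnitine palmitoyltransferase of muscle, was at 96.8 and 176 CPM in AngII and 23.7 and 10.5 CPM in sham libraries at 50 mg, against 132 and 58.3 CPM in AngII and 47.9 and 34.9 CPM in sham libraries on vehicle, so its libraries overlapped in AngII hearts.

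Other energy genes had smaller medians. The 46 nuclear-encoded genes of oxidative phosphorylation had a median log2 fold change of -0.24 (0.13 in AngII and -0.49 in sham hearts), with 40 negative and 0 at an unadjusted p under 0.05. Ndufa10, Ndufb5 and Uqcrb, subunits of respiratory complexes I and III, were the 3 of 46 that did not overlap in either arm and lay lower, against 2.37% of all genes, and their log2 fold changes were -0.41, -0.36 and -0.24. The 29 genes of glycolysis and glucose uptake had a median of -0.11, which was 0.01 without library 12 and 0.03 on log2(TPM + 1). Eno1, a glycolytic enolase, had a log2 fold change of 0.44 ± 0.18, and Pdk2, a second pyruvate dehydrogenase kinase, one of -0.59 ± 0.25, and these were the 2 of 29 at an unadjusted p under 0.05. The 1 higher and 1 lower are close to the shares of all genes, 2.08% and 1.63%. The 23 regulators of mitochondria had a median of -0.15 (0.13 in AngII and -0.42 in sham hearts), with 17 negative. Sirt1, a deacetylase, and Polg, the mitochondrial DNA polymerase, were the 2 higher at an unadjusted p under 0.05, against 2.08% of all genes. Their log2 fold changes were 0.73 ± 0.28 and 0.55 ± 0.23. The coactivator Ppargc1a had a value of -0.23 ± 0.26.

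Fkbp5, a co-chaperone of the glucocorticoid receptor on chromosome 17 (28399094 to 28517527, minus strand), was higher at 50 mg in both arms. Its levels were 4.12 and 7.56 CPM in AngII and 12.8 and 22.1 CPM in sham libraries at 50 mg, against 2.68 and 2.69 CPM in AngII and 1.88 and 6.35 CPM in sham libraries on vehicle. The arms did not overlap within themselves, although sham vehicle number 8 was above AngII number 5 at 50 mg. The common log2 fold change was 1.60 ± 0.39, or 3.04-fold higher (edgeR, unadjusted p = 0.0017), with a DESeq2 adjusted p of 0.0412.

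Fkbp5 belongs to a list of 18 glucocorticoid-responsive genes, of which 13 had a positive and 5 a negative log2 fold change. The list's median was 0.47, with -0.28 in AngII and 0.96 in sham hearts. At an unadjusted p under 0.05, 3 of 18 lay higher, against 2.08% of all genes, and 2 lower, against 1.63%. Beside Fkbp5 these were Zbtb16, a zinc finger transcription factor, at 1.29 ± 0.42, and Tsc22d3, which encodes the leucine zipper protein GILZ, at 0.86 ± 0.34. Tsc22d3 was at 13.6 and 15.6 CPM in AngII and 36.8 and 35.0 CPM in sham libraries at 50 mg, against 9.48 and 18.7 CPM in AngII and 11.3 and 11.1 CPM in sham libraries on vehicle, so it was separate in sham hearts and overlapped in AngII hearts. The 2 that lay lower were Pdk4 and Angptl4, which the list shares with fatty acid use and which glucocorticoids raise in other tissues, so the list did not lie in one direction.

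Fbxl22, an F-box protein of the cardiac Z-disc, lay higher at 50 mg in both arms. It was at 21.4 and 30.4 CPM in AngII and 12.4 and 11.3 CPM in sham libraries at 50 mg, against 13.7 and 11.9 CPM in AngII and 3.67 and 1.45 CPM in sham libraries on vehicle. The sham libraries at 50 mg lay at about the level of the AngII libraries on vehicle, so that the arms differ in level as well as by dose. The log2 fold change over both arms was 1.61 ± 0.33 (edgeR, unadjusted p = 0.000537), and DESeq2's adjusted p was 0.00398. Fbxl22 lies on chromosome 9 (66508459 to 66514593, minus strand) within the span of Herc1 on the opposite strand, and no source used here states the strand setting of the counts, so reads of the 2 genes cannot be told apart.

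Wdr82, a subunit of the SET1 histone methyltransferase complexes, lay higher with little spread between the libraries of a dose. It was at 10.7 and 10.9 CPM in AngII and 9.18 and 9.67 CPM in sham libraries at 50 mg, against 6.16 and 6.61 CPM in AngII and 6.51 and 6.32 CPM in sham libraries on vehicle. The means were 10.1 ± 0.833 CPM at 50 mg and 6.4 ± 0.202 CPM on vehicle (SD, n = 4 each), and the log2 fold change of 0.66 ± 0.17 was close in AngII (0.76) and sham hearts (0.56). Its unadjusted p by edgeR was 0.00258 and its adjusted p was 1.00.

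Xbp1, the transcription factor of the unfolded protein response, was another of the 10 named genes that lay higher. It was at 4.56 and 7.04 CPM in AngII and 5.70 and 4.94 CPM in sham libraries at 50 mg, against 3.29 and 2.43 CPM in AngII and 3.49 and 3.01 CPM in sham libraries on vehicle. The log2 fold change was 0.87 ± 0.22. Among the 26 genes of the unfolded protein response the median was 0.25 (0.18 in AngII and 0.36 in sham hearts), 21 were positive, and at an unadjusted p under 0.05 Xbp1 and Ddit3 (CHOP, 0.45 ± 0.17) lay higher and Ppp1r15a (GADD34, -0.54 ± 0.24) lay lower, against 2.08% of all genes higher and 1.63% lower. Of 19 heat shock genes (median 0.09), 4 lay higher at that threshold, against 2.08% of all genes. These were the inducible HSP70 genes Hspa1a (1.56 ± 0.60) and Hspa1b (1.86 ± 0.65), which are near-identical copies whose reads can be split between them, with Hsph1 (0.76 ± 0.27) and Hsp90aa1 (0.53 ± 0.24). For Hspa1a the log2 fold change was 0.03 ± 0.55 in AngII and 3.16 ± 0.60 in sham hearts, with an adjusted p of 0.364 for the difference.

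Dpm1, a subunit of dolichol-phosphate-mannose synthase, had a log2 fold change of 1.93 ± 0.41, but it shares exons with the predicted gene Gm20716. The counts of the pair summed to 548 and 279 in AngII and 455 and 641 in sham libraries at 50 mg, against 949 and 651 in AngII and 382 and 643 in sham libraries on vehicle. With the pair summed the log2 fold change was 0.04, and whether reads were split differently between the 2 genes was not tested. Hist3h2a, a histone H2A gene that overlaps Trim17, had a value of 0.83 ± 0.23. The others of the 10 that lay higher were Fam117b (0.86 ± 0.24), the transcriptional repressor Bcl6 (0.92 ± 0.26), the matrix glycoprotein Fbln1 (0.83 ± 0.22), and complement C3 (1.20 ± 0.30). DESeq2 gave C3 an adjusted p of 0.0496.

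H2-Q4, a nonclassical class I gene of the major histocompatibility complex, lay lower at 50 mg in each arm. It was at 3.73 and 3.74 CPM in AngII and 1.17 and 0.770 CPM in sham libraries at 50 mg, against 8.82 and 6.62 CPM in AngII and 3.71 and 2.55 CPM in sham libraries on vehicle. Its log2 fold change was -1.36 ± 0.25 (edgeR, unadjusted p = 0.00022), with a DESeq2 adjusted p of 0.00643. H2-Q4 belongs to a family of similar class I genes, and reads could be split among them. The 17 genes of antigen presentation had a median of 0.40 (-0.16 in AngII and 0.84 in sham hearts). Of these, 1 lay higher at an unadjusted p under 0.05, against 2.08% of all genes: H2-DMa (0.93 ± 0.41), which loads class II molecules.

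Ahdc1 and Car8 lay lower by about the same amount in both arms. Ahdc1, a DNA-binding protein gene, was at 1.21 and 1.40 CPM in AngII and 1.58 and 1.5 CPM in sham libraries at 50 mg, against 1.96 and 3.50 CPM in AngII and 3.36 and 3.61 CPM in sham libraries on vehicle, a log2 fold change of -1.12 ± 0.25. Car8, a carbonic anhydrase-related protein without enzyme activity, was at 2.85 and 3.04 CPM in AngII and 3.50 and 2.08 CPM in sham libraries at 50 mg, against 6.06 and 4.47 CPM in AngII and 5.68 and 7.05 CPM in sham libraries on vehicle. Its log2 fold change was -1.01 ± 0.23. Cpxm2, a secreted carboxypeptidase-like protein, had a value of -1.63 ± 0.42, with -0.62 ± 0.39 in AngII and -2.66 ± 0.42 in sham hearts, and its vehicle level was carried in part by sham number 7 at 23.2 CPM. The transcription factor Mitf (-1.24 ± 0.34) and the keratin-like Krt222 (-0.98 ± 0.28) completed the 10, with the airway secretory gene Scgb1a1, described with the markers of other tissues.

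Avp, the vasopressin precursor, had the smallest p of all genes but is too low for the level used above, and it was picked after its values were seen. Its raw counts were 0 and 0 in AngII and 5 and 0 in sham libraries at 50 mg, against 185 and 96 in AngII and 61 and 205 in sham libraries on vehicle. It was therefore counted in 1 library at 50 mg and in 4 on vehicle, with sums of 5 and 547 counts. At 5 mg the counts were 148 and 3 in AngII and 0 and 65 in sham libraries, so the lower dose held both states. The adjusted p was 0.33 by edgeR and 1.33e-09 by DESeq2. Kctd12, also picked after its values were seen, was at 0 CPM in all 50 mg libraries, against 4.39 and 5.55 CPM in AngII and 6.47 and 0 CPM in sham libraries on vehicle, and shares sequence with the microRNA gene Mir5130. Also called by DESeq2 were Plekhh1 (2.09 ± 0.35 by edgeR) and Mier1 (1.89 ± 0.46), which lay higher, and the growth factor Fgf9 (-1.80 ± 0.40) and the airway gene Bpifa1 (-2.42 ± 0.52), which lay lower. The libraries of Mier1 overlapped in AngII hearts.

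No gene that marks hypertrophy was called by edgeR for the common effect. Acta1 lay lower in sham hearts, while its libraries overlapped in AngII hearts. Nppa had a log2 fold change of -0.04 ± 0.29 (95% interval -0.68 to 0.60), Nppb one of -0.16 ± 0.26 (-0.72 to 0.40), and Myh7, the beta-myosin heavy chain, one of -0.06 ± 0.37 (-0.87 to 0.75). These intervals leave room for differences in either direction, and the sign of all 3 turned when single libraries were left out. Acta1, the skeletal alpha-actin of the fetal programme, was at 252 and 131 CPM in AngII and 170 and 295 CPM in sham libraries at 50 mg, against 228 and 294 CPM in AngII and 945 and 756 CPM in sham libraries on vehicle. It overlapped in AngII hearts (-0.45 ± 0.42) and was separate in sham hearts (-1.87 ± 0.44), with a common value of -1.16 ± 0.36 (edgeR, unadjusted p = 0.00799). Over the 20 genes of the fetal and hypertrophy programme with enough counts, of 21 listed, the median was -0.11 with 15 negative. Acta1 was the 1 at an unadjusted p under 0.05, against 1.63% of all genes that lay lower. The atrial light chains Myl7 (-1.48 ± 0.83) and Myl4 (-0.96 ± 0.51) had the next smallest p of that list.

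The 22 sarcomere genes had a median of -0.27, with 0.21 in AngII and -0.81 in sham hearts. Myom2, an M-band protein (-0.63 ± 0.24), was the 1 at an unadjusted p under 0.05, against 1.63% of all genes that lay lower. Myh6, the alpha-myosin heavy chain of the adult mouse heart, was at 4140 and 4331 CPM in AngII and 1052 and 692 CPM in sham libraries at 50 mg, against 3467 and 2076 CPM in AngII and 2086 and 1436 CPM in sham libraries on vehicle. Its log2 fold change was thus 0.61 ± 0.47 in AngII and -1.01 ± 0.48 in sham hearts. The difference between the arms had an adjusted p of 0.683 (edgeR).

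Matrix genes had a positive common median made of opposite values in the arms. Of 46 matrix and fibrosis genes with enough counts, 43 had a positive common log2 fold change and the median was 0.39, but it was -0.38 in AngII and 1.23 in sham hearts. Their summed level was 343.7 and 363.9 CPM in AngII and 1050 and 1053 CPM in sham libraries at 50 mg, against 420.4 and 484 CPM in AngII and 366.5 and 563 CPM in sham libraries on vehicle. At an unadjusted p under 0.05, 2 of 46 lay higher, Fbln1 and Col6a3 (1.08 ± 0.42), a share near the 2.08% of all genes. Postn, the matricellular protein of activated fibroblasts, was at 1.19 and 0.542 CPM in AngII and 10.8 and 6.26 CPM in sham libraries at 50 mg, against 0.994 and 1.21 CPM in AngII and 1.38 and 3.16 CPM in sham libraries on vehicle. Col3a1, a fibrillar collagen, had log2 fold changes of -0.80 ± 0.40 in AngII and 1.57 ± 0.41 in sham hearts, and Col1a1 had -0.38 ± 0.45 in AngII and 1.37 ± 0.46 in sham hearts. The adjusted p of the difference between the arms was 0.504 for Postn, 0.336 for Col3a1 and 0.639 for Col1a1 (edgeR).

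Macrophage markers had positive values, though edgeR called none of them after adjustment. All 16 had a positive common log2 fold change, the median was 0.75 (0.27 in AngII and 1.43 in sham hearts, a difference between arms that was not tested over the list), and 5 of 16 were at an unadjusted p under 0.05, against 2.08% of all genes. These were the complement subunits C1qa (1.09 ± 0.32), C1qb (0.85 ± 0.35) and C1qc (0.95 ± 0.29), the hyaluronan receptor Lyve1 (1.06 ± 0.44) and lysozyme Lyz2 (0.71 ± 0.32). The summed level of the list was 64.0 and 46.7 CPM in AngII and 187.6 and 155.3 CPM in sham libraries at 50 mg, against 32.7 and 60.3 CPM in AngII and 46.2 and 93.0 CPM in sham libraries on vehicle. The libraries thus overlapped in AngII and were separate in sham hearts. For 5 mg over vehicle, a comparison with the same vehicle libraries, the median of the list was 0.77. In bulk RNA, more or fewer cells of a type and more or less RNA per cell cannot be told apart.

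Of 12 fibroblast markers, 11 had a positive common log2 fold change, with a median of 0.30 (-0.23 in AngII and 0.92 in sham hearts). Gsn, the actin-severing gelsolin (0.94 ± 0.30), and Dcn, the proteoglycan decorin (0.78 ± 0.29), were the 2 of 12 at an unadjusted p under 0.05, both higher, against 2.08% of all genes. Because the sums of both lists are highest in the sham libraries at 50 mg, the matrix, complement and immune genes are read beside them, and the part of these cells in those values was not tested.

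Immune signalling genes had smaller medians. Of 32 cytokine, chemokine and NF-kB genes the median was 0.23 (-0.17 in AngII and 0.89 in sham hearts), and 5 lay higher at an unadjusted p under 0.05, against 2.08% of all genes: the chemokines Ccl9 (1.93 ± 0.50) and Cxcl14 (0.88 ± 0.31), the adhesion molecule Icam1 (0.85 ± 0.33), the receptor Tlr2 (1.44 ± 0.65) and the cytokine Il18. Il18 was at 0 CPM in all vehicle libraries and at 0.0585 and 0.0971 CPM in AngII and 0.263 and 0 CPM in sham libraries at 50 mg, so it stood at the limit of detection. Of the 32, 5 lay higher without overlap in either arm, against 2.5% of all genes: the other 4 of those just named and Il6st, the shared receptor chain of the IL-6 family. Of 34 interferon-stimulated genes (median 0.20, with -0.06 in AngII and 0.51 in sham hearts), Gbp2, a guanylate-binding protein (1.43 ± 0.37), and Oas1a, an oligoadenylate synthetase (1.15 ± 0.44), lay higher at an unadjusted p under 0.05, against 2.08% of all genes.

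**Figure D2:**
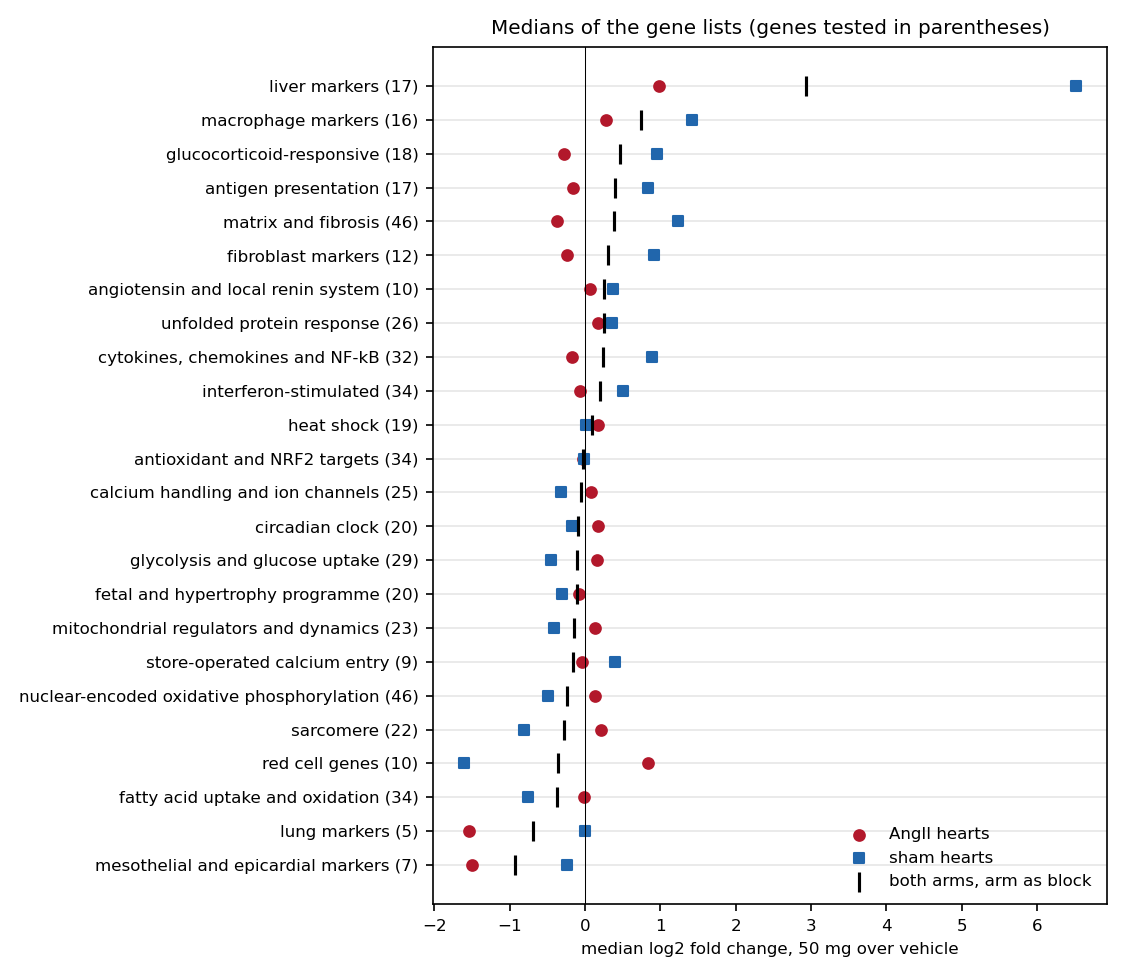
Median log2 fold change of 24 gene lists, 50 mg over vehicle, in AngII hearts, in sham hearts and in common; each point is the median over the members with enough counts and the zero line marks no difference. The matrix list lies at -0.38 in AngII and 1.23 in sham hearts, and the fatty acid list at -0.02 in AngII and -0.76 in sham hearts.

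Markers of tissues other than heart differed between the libraries. All 17 liver markers had a positive common log2 fold change, with a median of 2.94 (0.99 in AngII and 6.52 in sham hearts), and 11 of 17 were at an unadjusted p under 0.05, all of them higher, against 2.08% of all genes. Their summed level was 92.6 and 34.8 CPM in AngII and 56.3 and 60.9 CPM in sham libraries at 50 mg, against 3.82 and 50.1 CPM in AngII and 3.91 and 4.71 CPM in sham libraries on vehicle. The vehicle libraries were low but for AngII number 2, which lay above AngII number 6 at 50 mg. Albumin (Alb) was at 43.4 and 13.6 CPM in AngII and 15.6 and 19.2 CPM in sham libraries at 50 mg, against 0.179 and 18.9 CPM in AngII and 0.948 and 0.102 CPM in sham libraries on vehicle, and Alb was at 10.3 and 36 CPM in AngII and 0.159 and 31 CPM in sham libraries at 5 mg. Apoa1, the main apolipoprotein of HDL, was at 0 CPM in both sham vehicle libraries. Without AngII number 2 the edgeR test for the common effect called 28 genes of 17343 (0.161%), and 9 of the 17 liver markers were among them. Of the genes called by DESeq2, Rbp4, Pzp and Mup16 are also made chiefly in liver, and their part in the other results was not tested.

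Airway transcripts were low in most of these libraries. Scgb1a1, the club cell secretory protein, was at 2.66 and 1.42 CPM in AngII and 0 and 0 CPM in sham libraries at 50 mg, against 8.97 and 7.15 CPM in AngII and 0.632 and 0.102 CPM in sham libraries on vehicle. The 5 lung markers with enough counts, of 10 listed, summed to 4.64 and 2.61 CPM in AngII and 0.395 and 0.171 CPM in sham libraries at 50 mg, against 14.1 and 11.4 CPM in AngII and 1.03 and 0.153 CPM in sham libraries on vehicle. Of the 5, 4 had a negative and 1 a positive common log2 fold change. Their median was -0.68 (-1.54 in AngII and 0 in sham hearts), and 0.65 for 5 mg over vehicle. Of 7 mesothelial and epicardial markers, Krt8 (-3.39 ± 1.19) and Msln (-2.91 ± 1.11), both under 1.2 CPM in all 8 libraries, were at an unadjusted p under 0.05, against 1.63% of all genes that lay lower at that threshold. Red cell genes summed to 1642 and 3431 CPM in AngII and 312 and 638.5 CPM in sham libraries at 50 mg, against 1062 and 1633 CPM in AngII and 1804 and 1357 CPM in sham libraries on vehicle, so that their order was opposite in the 2 arms.

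**Figure D3:**
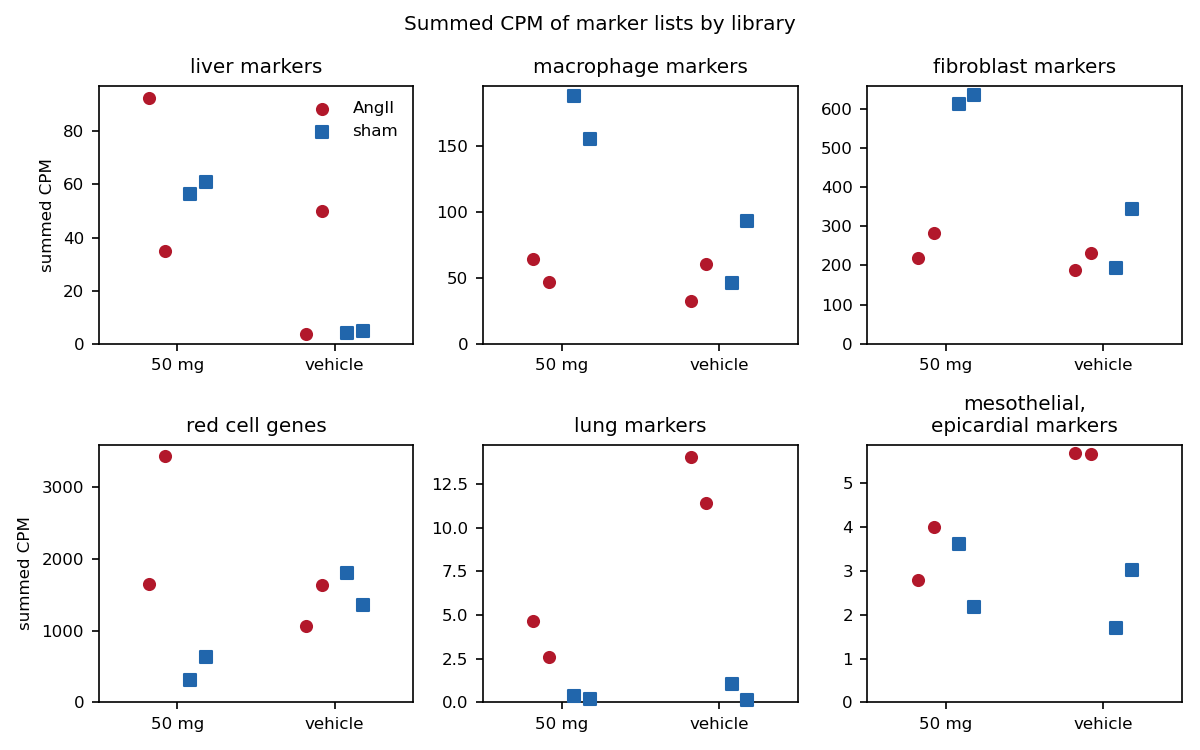
Summed level (CPM, linear scale from 0) of the liver, macrophage, fibroblast, red cell, lung and mesothelial marker lists in each of the 8 libraries, with 50 mg left of vehicle; circles are AngII and squares sham libraries. The liver sum is 34.8 CPM or more in the 4 libraries at 50 mg and below 5 CPM in 3 of the 4 on vehicle.

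The arms were then set against each other. In AngII hearts edgeR called 2 of 16723 genes (0.012%), Klhdc10 lower and the predicted gene Gm49394 higher, and 315 (1.88%) were at an unadjusted p under 0.05. In sham hearts it called 25 (0.149%), and 1542 (9.22%) were at an unadjusted p under 0.05. Chance would give about 836 at that threshold in each arm if no gene differed. Over 16017 genes with a value in both arms, 7216 (45.1%) had the same sign. The 2 effects share no libraries, and across these genes, which are not independent replicates, Pearson's r was 0.00 and Spearman's rho -0.08. Among the 7858 genes of at least 1 mean log2 CPM, 42.6% had the same sign and rho was -0.22. The SD of the log2 fold changes of these genes was 0.40 in AngII and 0.69 in sham hearts.

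Of the 16017 genes, 61 were at an unadjusted p under 0.05 in both arms (edgeR), 28 with the same sign and 33 with opposite signs. The same sign was thus no more common than opposite signs among them. Pdk4, Ucp3, H2-Q4, Fkbp5, Wdr82, Ahdc1, Car8, Dpm1 (common log2 fold change 0.04 with its overlapping pair summed), Scgb1a1 and Avp were among the 28. Snrk, a kinase of the AMPK family picked after its values were seen, was another, at 22.6 and 6.54 CPM in AngII and 11.4 and 9.34 CPM in sham libraries at 50 mg, against 8.06 and 3.56 CPM in AngII and 3.08 and 4.34 CPM in sham libraries on vehicle. Errfi1, a feedback inhibitor of EGF receptor signalling, was among the 33. It was at 3.33 and 4.03 CPM in AngII and 14.4 and 10.5 CPM in sham libraries at 50 mg, against 11.1 and 7.40 CPM in AngII and 1.82 and 2.19 CPM in sham libraries on vehicle, and its common log2 fold change of 0.62 ± 0.74 averages -1.33 ± 0.31 in AngII and 2.63 ± 0.33 in sham hearts.

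**Figure D4:**
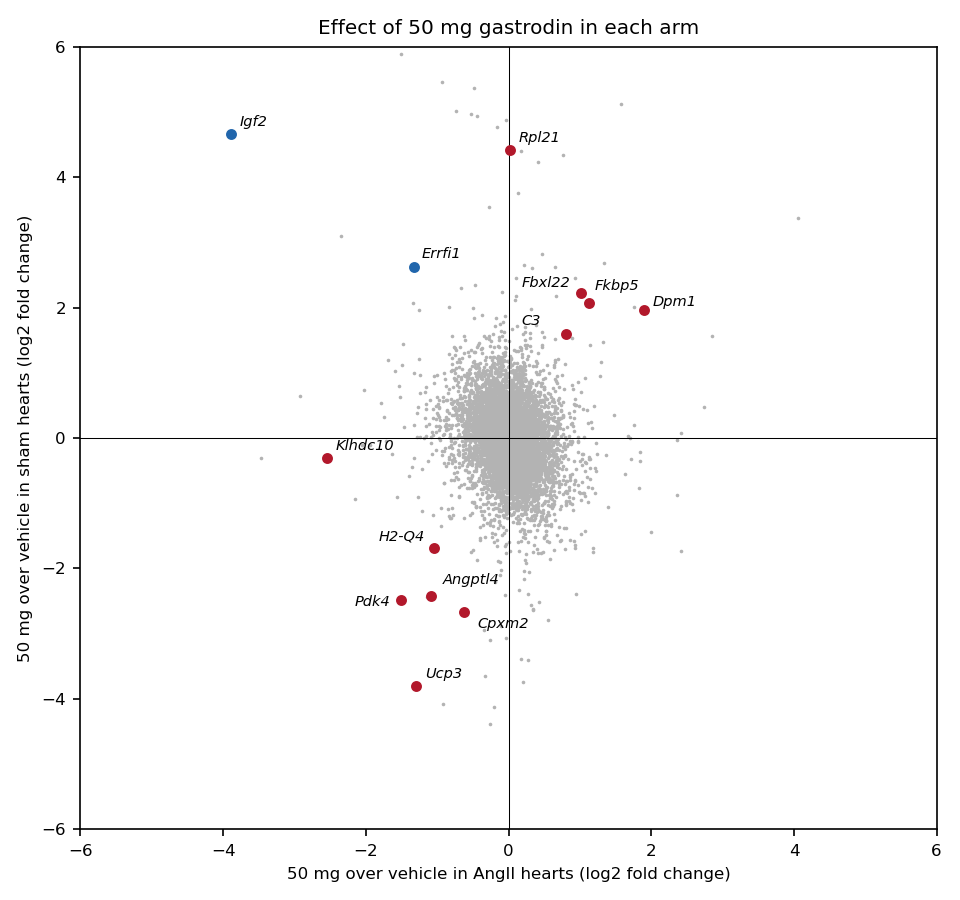
Log2 fold change of 50 mg over vehicle in AngII hearts (x axis) and in sham hearts (y axis) for 7858 genes of at least 1 mean log2 CPM, 8 of which lie outside the axes; labelled genes have the same sign in both arms (red) or opposite signs (blue). Pdk4 and Ucp3 lie at the lower left, Fkbp5 and Fbxl22 at the upper right, and Errfi1 at the upper left.

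The test of the difference between the arms called 5 genes (0.0299%). For Errfi1 the log2 fold change in AngII minus that in sham hearts was -3.96 ± 0.45 (adjusted p = 0.00466 by edgeR). Igf2, the insulin-like growth factor, and Gm49394 overlap on the same strand, and each was high where the other was low. Igf2 had 37 and 4 counts in AngII and 471 and 861 in sham libraries at 50 mg, against 331 and 356 in AngII and 18 and 37 in sham libraries on vehicle. The sums of the pair were 203 and 294 in AngII and 471 and 861 in sham libraries at 50 mg, against 331 and 356 in AngII and 201 and 412 in sham libraries on vehicle. Rpl21, a ribosomal protein gene, had 44 and 71 counts in AngII and 927 and 1191 in sham libraries at 50 mg, against 57 and 49 in AngII and 42 and 61 in sham libraries on vehicle. Rpl21 and the predicted gene Gm10036, the last of the 5, are uncertain, since ribosomal protein genes have many near-identical copies among which reads can be split. Klhdc10, a kelch-repeat protein, was at 0.995 and 0.930 CPM in AngII and 5.12 and 5.34 CPM in sham libraries at 50 mg, against 5.55 and 5.63 CPM in AngII and 6.47 and 6.48 CPM in sham libraries on vehicle, but the difference between its arms had an adjusted p of 0.144 (edgeR).

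The genes in which store-operated calcium entry and oxidative stress were followed had little common difference. Stim1, the calcium sensor of the endoplasmic reticulum, had a log2 fold change of 0.20 ± 0.32 (95% interval -0.50 to 0.90), and Orai1, the channel it opens, one of 0.73 ± 0.30. Orai1 was at 1.61 and 2.02 CPM in AngII and 1.64 and 1.95 CPM in sham libraries at 50 mg, against 1.12 and 1.11 CPM in AngII and 0.711 and 1.40 CPM in sham libraries on vehicle, and every 50 mg library was above every vehicle library (edgeR, unadjusted p = 0.0333). It was the 1 of 9 genes of store-operated calcium entry at that threshold, against 2.08% of all genes that lay higher. The 34 antioxidant genes had a median of -0.03, with Hmox1 (heme oxygenase) at 0.41 ± 0.38 and Nqo1 (a quinone reductase) at -0.49 ± 0.27, and at an unadjusted p under 0.05 Srxn1, which repairs peroxiredoxins, lay lower (-0.55 ± 0.22). The cystine transporter Slc7a11, the 1 that lay higher, had 52 and 30 counts in the sham libraries at 50 mg and 0 in the other 6 of these libraries. Of all genes, 2.08% lay higher and 1.63% lower at an unadjusted p under 0.05. The 25 genes of calcium handling had a median of -0.05, and 0 of them were at an unadjusted p under 0.05. Among 10 genes of the local renin-angiotensin system (median 0.25), 0 were at that threshold, and Ace, the angiotensin-converting enzyme, had a value of 0.67 ± 0.34.

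The 5 mg libraries were set beside the others for the genes that lay apart at 50 mg. No gene passed the edgeR test for 5 mg against vehicle (0% of 16723, with 404, or 2.42%, at an unadjusted p under 0.05), nor for 50 mg against 5 mg (0%, with 467, or 2.79%), while DESeq2 called 4 and 3 genes. Pdk4 was at 9.09 and 12.8 CPM in AngII and 18.8 and 20.8 CPM in sham libraries at 5 mg. All 4 were below every vehicle library, the AngII values lay within the range of the AngII libraries at 50 mg, and the sham values lay above the sham libraries at 50 mg. Its log2 fold change was -1.42 ± 0.33 for 5 mg over vehicle and -0.54 ± 0.33 for 50 mg over 5 mg. Ucp3 was at 2.03 and 3.30 CPM in AngII and 2.48 and 5.02 CPM in sham libraries at 5 mg, below every vehicle library, with a log2 fold change of -1.11 ± 0.56 for 5 mg over vehicle.

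Fkbp5 was at 4.32 and 5.38 CPM in AngII and 4.43 and 8.21 CPM in sham libraries at 5 mg, and its log2 fold change was 0.74 ± 0.38 for 5 mg over vehicle and 0.90 ± 0.38 for 50 mg over 5 mg. At 5 mg, H2-Q4 and Car8 had fold changes near 0. On the log2 scale the fold change of H2-Q4 was 0.05 ± 0.32 for 5 mg over vehicle and -1.37 ± 0.33 for 50 mg over 5 mg. For Car8 it was 0.06 ± 0.23 for 5 mg over vehicle and -1.07 ± 0.23 for 50 mg over 5 mg. The comparisons of 5 mg and of 50 mg share the vehicle libraries.

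**Figure D5:**
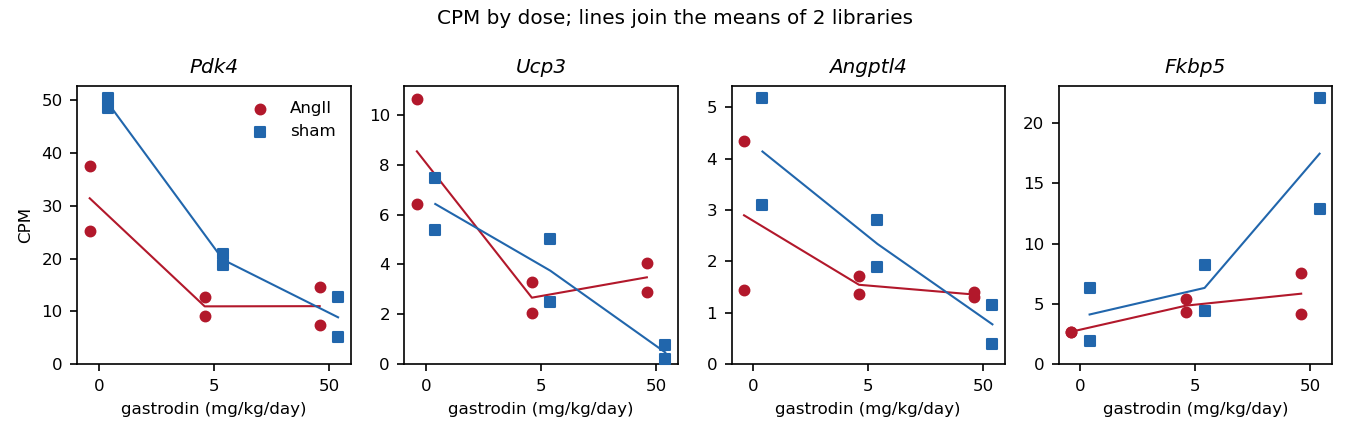
Normalised level (CPM) of Pdk4, Ucp3, Angptl4 and Fkbp5 at 0 (vehicle), 5 and 50 mg/kg/day of gastrodin, drawn as ordered steps and not to scale; points are single libraries, circles and squares are AngII and sham, and lines join the means of 2 libraries. Pdk4 lies at 25.3 to 50.4 CPM on vehicle, 9.09 to 20.8 CPM at 5 mg and 5.06 to 14.6 CPM at 50 mg.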

How the data were processed

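RNA of hearts was sequenced from libraries made from 1 µg of total RNA as paired ends of up to 250 bases, per the labels' protocols. The submitters' processing notes name HISAT2 (2.2.1), StringTie (2.1.3) and the build GRCm38.p6. Which program counted the reads, with which annotation and strand setting, is not given in the sources. The authors deposited raw read counts for 27504 genes (27453 with a symbol, 51 without) and, per the file headers, TPM values for 14271 genes. The TPM values served as an alternative only, on log2 with a pseudocount of 1 or 0.1.

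Counts were filtered with filterByExpr, scaled by TMM and tested with edgeR 4.0.16 (R 4.3.3) by the quasi-likelihood test, 2-sided, with Benjamini-Hochberg adjustment over all genes tested and a threshold of 0.05. The common effect was fitted on the 8 libraries with arm and dose (5 residual degrees of freedom). Values within arms and their difference came from 1 mean per group over all 12 libraries (6 residual degrees of freedom), and the 5 mg comparisons from arm and dose over 12 (8 residual degrees of freedom). SE is the log2 fold change divided by the square root of F. CPM is counts per 1000000 of the TMM-scaled total, mitochondrial counts included, and serves to compare libraries within a gene, never genes with each other. Nuclear counts were 5.17 to 13.7 M in the 8 libraries, which limits precision for low genes.

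Named genes are the 10 with the smallest p in each direction as described, leaving out predicted genes and pseudogenes, 14 fixed genes, and the 3 members of each of 24 described lists with the smallest p. Of these, 1 list member is not reported here. Every other gene named was picked after its values were seen. The comparison, members and lists were chosen with earlier results of these data known. Positions come from GENCODE on GRCm38, and 2165 genes overlap another on the same strand. Alternatives were limma-voom (limma 3.58.1), DESeq2 1.42.0, other scalings and filters, a 1.5-fold limit, single libraries left out, overlapping genes summed, another model and TPM. The test was checked on simulated counts for 16024 genes, with 9 false calls. The exact test used scipy 1.17.1.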

Additional observations from a re-analysis of the deposited data

Results flagged for a closer look

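Of 74 sets of 4 libraries examined for a single library far from the others (by its gap to the nearest, as a share of the range), 3 were marked, and chance marks about 1 in 20. Ribosomal RNA took 10.84% of counts in sham number 12 at 50 mg, against 0.0724 to 0.0927% in the other 3 libraries at 50 mg. Ahdc1 was at 1.957 CPM in AngII number 1 on vehicle, against 3.356 to 3.61 CPM in the other vehicle libraries. Cpxm2 was at 23.25 CPM in sham number 7 on vehicle, against 9.787 to 10.36 CPM in the other vehicle libraries.

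The effect of 50 mg differed between the arms for 5 genes in the edgeR test of the difference. The log2 fold change in AngII minus that in sham hearts was -3.962 for Errfi1 (adjusted p = 0.00466, with libraries of each arm not overlapping and lying in opposite directions), -8.549 for Igf2 (adjusted p = 0.0186) and 21.85 for Gm49394 (adjusted p = 0.00187). Igf2 and Gm49394 overlap, and with overlapping genes summed their difference between arms was -1.76 (adjusted p = 0.52 by edgeR). The part of read splitting between the 2 genes in their values was not tested further. The value for Gm49394, with libraries at 0 counts, depends on the prior count and is no measure of size. The difference was -4.40 for Rpl21 (adjusted p = 0.00187) and -5.849 for Gm10036 (adjusted p = 0.0293).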

How the results depend on the processing

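Calls were few and moved with the setting, and the causes of these moves were not tested unless stated. For the common effect, which had 0 calls, DESeq2 gave 21, no filter on low counts 191, the fit of all 12 libraries 2 (Rpl21 and Rpsa-ps10), the share of nuclear counts as a covariate 1 (Aqp6), log2(TPM + 1) 1 (Avp) and log2(TPM + 0.1) 16. Chosen after seeing the data, leaving out numbers 2 and 12 together gave 5 (Apoa1, Apoa2, Mup7, Mup22 and Eif3j2). Leaving out single libraries gave 0 to 28 calls, with 28 without number 2, 1 each without number 1 (Gdpd3), 6 (Mier1), 7 and 8 (Kctd12 in both) and 11 (Avp), and 0 without 5 or 12. DESeq2 size factors, voom, a minimum of 1 CPM in 4 libraries, overlapping genes summed, mitochondrial and haemoglobin genes left out, no arm term, a prior count of 5 and a 1.5-fold limit each gave 0.

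In AngII hearts the 2 calls became 15 by DESeq2, 0 by voom, 62 with no filter and 1 with overlapping genes summed, and 0 to 13 with single libraries left out (13 without number 5, 0 without 1 or 6). In sham hearts the 25 calls became 281 by DESeq2, 354 with no filter and 16 at a minimum of 1 CPM, and 1 to 24 with single libraries left out (1 without number 7, 9 without 12). For the difference between arms the 5 calls became 114 by DESeq2, 231 with no filter and 3 with overlapping genes summed, and 2 to 16 with single libraries left out (16 without number 5, 8 without 2 or 11, 2 without 7). For 5 mg against vehicle DESeq2 called 4 (Dnah8, Pcyt1b, B430218F22Rik and Gm28048) and no filter 78, and for 50 mg against 5 mg DESeq2 called 3 (Rpl26, Gm15772 and Kctd12) and no filter 89, while leaving out single libraries gave 0. A lone library left in a group is assumed to vary like the others. The difference in the share of nuclear counts, 0.823 percentage points, ran from -1.43 to 3.07 with single libraries left out.

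Of 24 lists, 17 had a median of 1 sign under all 23 alternatives. The 7 others were the antioxidant, calcium handling, clock, glycolysis, mesothelial, red cell and store-operated calcium lists. The liver median, 2.94, ran from 0.72 to 7.00, and the fatty acid median, -0.37, from -0.53 to -0.23. With single libraries left out, the common log2 fold change turned sign for Col3a1 (-0.11 to 0.80), Errfi1 (-0.14 to 1.40), Gm49394 (-4.47 to 4.14), Igf2 (-1.98 to 2.85), Igf2r (-0.16 to 0.24), Myh6 (-0.52 to 0.10), Myh7 (-0.39 to 0.25), Nppa (-0.24 to 0.24) and Nppb (-0.39 to 0.0109). Igf2r was also at -0.0196 by voom, -0.10 without the arm term and -0.25 without numbers 2 and 12. Myh7 was at 0.23 without the arm term and 0.0174 on log2(TPM + 1), and Myh6 at 0.17 without the arm term. Nppa was at 0.18 without numbers 2 and 12, 0.0398 on log2(TPM + 1) and 0.0400 on log2(TPM + 0.1), and Nppb at 0.0152 without numbers 2 and 12. With overlapping genes summed Gm49394 was at 0.32 in common and -1.76 for the difference between arms, and without numbers 2 and 12 it was at 0.0337. No paired analysis was possible because the library numbers run from 1 to 12 over the series and no 2 groups share one.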

Other observations

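Gene groups outside those described varied in their common medians, and some had few members with enough counts. The 16 cardiac transcription factor genes with enough counts had a median log2 fold change of -0.31 (-0.04 in AngII and -0.56 in sham hearts), with 13 negative. Of these 16, 1 lay lower at an unadjusted p under 0.05, against 1.63% of all genes. The 13 mitochondrially encoded protein genes had a median log2 fold change of -0.09 with 12 negative, the 51 cytosolic ribosomal protein genes one of 0.06, and the 25 immediate-early genes one of -0.03, made of -0.84 in AngII and 0.59 in sham hearts. The 34 cell cycle genes had a median of -0.17, with 0 at an unadjusted p under 0.05. Of 13 adipocyte markers 8 had enough counts, with a median of 0.83. The 9 receptors for GABA, glutamate and serotonin with enough counts, of 20 listed, had a median of 0.46 and 0 at an unadjusted p under 0.05. The 20 clock genes had a median of -0.09. Nfil3, a repressor of the clock's output (0.82 ± 0.34), was the 1 at that threshold, against 2.08% of all genes that lay higher.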
